A study of Mus musculus with 4 samples.

Results

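Newly formed oligodendrocytes, cells that have left the precursor state and not yet become mature myelinating oligodendrocytes, were chosen by their transcripts from single-nucleus RNA profiles of adult mouse brain: 126 of 50595 nuclei, or 0.249%. A nucleus with at least 500 unique molecular identifiers (UMIs, each standing for 1 captured transcript), at least 300 genes and at most 5% mitochondrially encoded UMIs was counted when it met 5 conditions. It held at least 2 UMIs of Bcas1 and at least 2 UMIs of Enpp6, Gpr17 and Bmp4 together, and these 4 genes made up at least 0.2% of its UMIs. It held no UMI of Pdgfra, the precursor receptor, and at most 1 UMI of the neuronal genes Slc17a7, Gad1 and Gad2 together. The same rule therefore fixed the levels of these 8 genes, and they are given below as a description only.

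The tissue was the brain, cerebellum excluded, of wild-type C57BL/6 mice at 10 weeks, frozen on dry ice for 10 min. There were 4 groups of 1 library each, combining harvest and treatment of the nuclei. They were the in vivo methanol library (craniotomy of the living animal under isoflurane, then nuclei fixed in 80% methanol at -20 °C for 30 min), the post-mortem methanol library (cervical dislocation, same fixation), the in vivo unfixed library and the post-mortem unfixed library. With 1 library per group no test between harvests or fixations was made, and harvest cannot be told apart from the animal and the piece of tissue, of at most 50 mg, that was extracted. Values of the 4 libraries follow in this order throughout: in vivo methanol, post-mortem methanol, in vivo unfixed, post-mortem unfixed. Levels are counts per 1000000 UMIs (CPM) in the summed counts of a class in a library.

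Oligodendrocyte precursors, which still divide in the adult brain, leave the cell cycle and pass through a short premyelinating stage in which the cell extends branched processes and tests axons before it wraps them or dies. Bcas1 encodes an early myelin-associated protein of that stage, and Enpp6 a choline-specific glycerophosphodiesterase used as a marker of its start. Gpr17 encodes a G protein-coupled receptor that is switched on as precursors commit and must go down before myelin is made, and Bmp4 a secreted growth factor of the TGF-beta superfamily. In the mouse genome (mm10) Bcas1 lies at chr2:170346991-170427845, Enpp6 at chr8:46986887-47096762, Gpr17 at chr18:31942997-31949636 and Bmp4 at chr14:46383520-46390669. Lims2, with 50 UMIs in newly formed nuclei against 134 of Gpr17, overlaps Gpr17 on the opposite strand, and the strand setting of the counting was not given in the sources used here, so UMIs of such pairs, and of antisense genes, are uncertain.

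All 126 nuclei carried Bcas1 by the rule, 115 had a UMI of Enpp6, 52 of Gpr17 and 43 of Bmp4. Of the 3 genes that could meet the second condition, 57 nuclei had Enpp6 alone, 20 had Enpp6 and Gpr17, 17 had Enpp6 and Bmp4, 6 had Gpr17 alone, 5 had Gpr17 and Bmp4, and 21 had all 3. The population was thus chosen mainly through Bcas1 with Enpp6. Bcas1 stood at 3988, 2666, 3413 and 2819 CPM in newly formed nuclei, and Enpp6 at 1219.9, 1314, 1555 and 1111 CPM. Gpr17 stood at 668, 364, 264 and 123 CPM and Bmp4 at 467, 289, 237 and 206 CPM. Gpr17 and Bmp4 were both highest in the in vivo methanol library. In nuclei with at least 3 UMIs of Slc17a7, which are excitatory neurons and should lack these genes, Bcas1 stood at 6.40, 3.66, 4.38 and 10.1 CPM and Enpp6 at 1.07, 1.34, 1.10 and 1.72 CPM. These levels are a reference from other nuclei. The level that free RNA and mixed droplets bring to newly formed nuclei was not estimated.

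The per-nucleus data showed that these nuclei were not of 1 kind. Each nucleus was placed by the share of its UMIs in 34 genes known from the newly formed stage, here called stage genes, and by the share in 32 myelin genes, in both cases without the genes that chose the classes. With a cut at 1% on both axes, chosen after the values were seen, 80 of 126 newly formed nuclei (63.5%) reached 1% in stage genes, against 3 of 407 precursors and 132 of 4796 mature oligodendrocytes (2.75%). A further 41 newly formed nuclei (32.5%) lay under 1% in stage genes and at or above 1% in myelin genes, where 4426 mature nuclei (92.3%) lay, and 5 were under 1% in both. The 41 nuclei had a median stage gene share of 0.384%, a median myelin gene share of 3.31% and a median of 1814 UMIs. The 80 nuclei had medians of 3.76% for stage genes, 0.998% for myelin genes and 2864 UMIs, and their median share in 27 precursor genes was 2.10%, against 0.301% in the 41. On these lists the 80 nuclei lay apart from most precursors and mature nuclei, and 41 nuclei that met the rule carried a profile in the range of mature oligodendrocytes. The stage genes go with those of the rule and the cut was set afterwards. The split therefore describes the nuclei and is no independent evidence for the label. The 41 made up 4 of 22 newly formed nuclei (18.2%) in the in vivo methanol library, 17 of 34 (50.0%) in the post-mortem methanol library, 6 of 36 (16.7%) in the in vivo unfixed library and 14 of 34 (41.2%) in the post-mortem unfixed library.

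**Figure D1:**
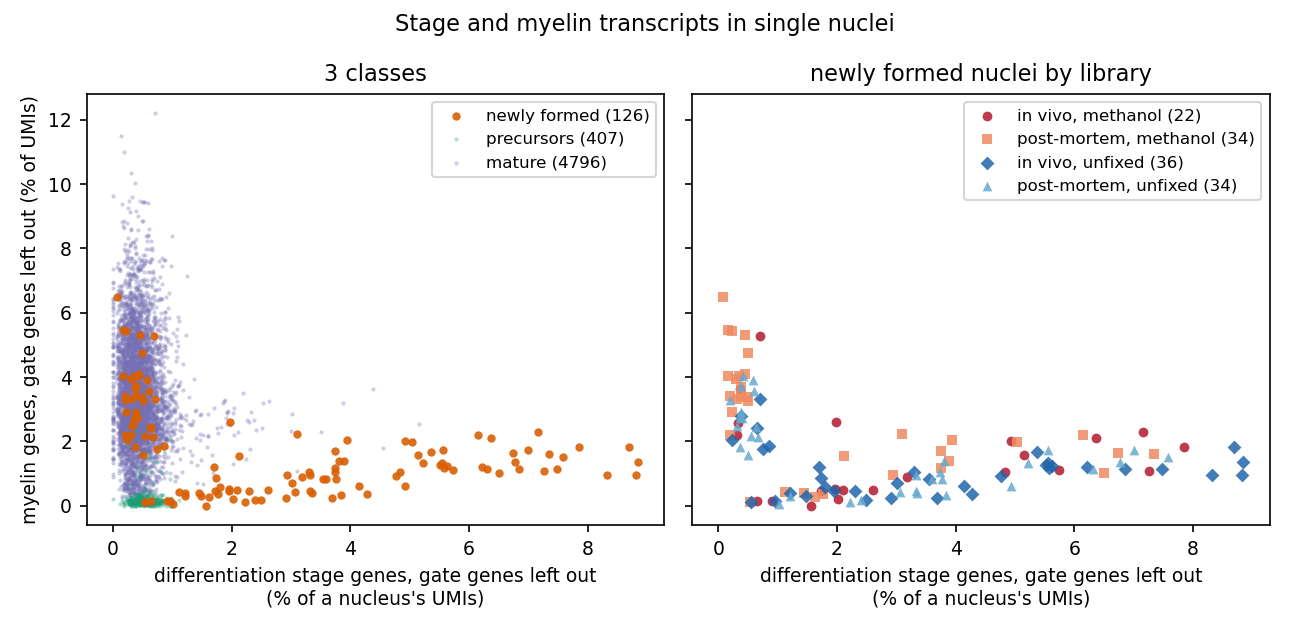
Share of a nucleus's UMIs in stage genes (x axis, %) against its share in myelin genes (y axis, %), genes of the rules left out; each point is 1 nucleus, with the 3 classes on the left and the newly formed nuclei by library on the right. The newly formed nuclei form an arm at 1% stage genes and above, where 80 of 126 lie, and a cluster among the mature nuclei, where 41 lie.

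How firmly a nucleus passed the rule went with this split. The 35 nuclei with exactly 2 UMIs of Enpp6, Gpr17 and Bmp4 together had 229 CPM of Tcf7l2, a transcription factor of the newly formed stage that the rule did not use, and 1227 CPM of Mog, a mature myelin glycoprotein. In 37 nuclei with 3 to 4 such UMIs these levels were 1304 CPM of Tcf7l2 and 607 CPM of Mog, and in 54 nuclei with 5 or more they were 2070 CPM of Tcf7l2 and 214 CPM of Mog. A Tcf7l2 UMI was seen in 4 of the 35, 21 of the 37 and 49 of the 54 nuclei, whose median depths were 1707, 2203 and 3646.5 UMIs, and depth rose along this order too. Just outside the rule, 78 nuclei that failed only through a single UMI of the 3 genes had 271 CPM of Tcf7l2 and 1386 CPM of Mog. Over the pooled libraries this was close to the 35 just inside, but single libraries differed. Tcf7l2 stood at 0, 44.1, 805 and 170 CPM outside and 0, 0, 243 and 426 CPM inside. Mog stood at 2098, 2294, 385 and 1021 CPM outside and 209, 2259, 567 and 1007 CPM inside. The in vivo methanol library held 3 of the nuclei just inside. Another 42 nuclei failed only through a single Bcas1 UMI, with 66.5 CPM of Tcf7l2, against 177 CPM in the 25 nuclei with exactly 2 Bcas1 UMIs. A stricter rule of at least 3 Bcas1 UMIs, at least 3 UMIs of the other 3 genes and at least 0.3% of UMIs left 17, 16, 24 and 14 nuclei in the 4 libraries.

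The share of newly formed nuclei ranged from 0.202 to 0.315% in the 4 libraries. The in vivo methanol library held 22 of 7649 nuclei (0.288%, exact Clopper-Pearson 95% interval 0.180 to 0.435%) and the post-mortem methanol library 34 of 10792 (0.315%, 0.218 to 0.440%). The in vivo unfixed library held 36 of 17854 nuclei (0.202%, 0.141 to 0.279%) and the post-mortem unfixed library 34 of 14300 (0.238%, 0.165 to 0.332%). These intervals, which cover counting error only, overlapped for every pair. Relative to precursors the order differed: newly formed nuclei made up 17.3, 22.4, 26.3 and 29.1% of newly formed and precursor nuclei together. The intervals of these percentages, 11.2 to 25.04, 16.02 to 29.8, 19.1 to 34.5 and 21.0 to 38.2%, overlapped as well. After each nucleus was thinned to 2000 UMIs, which evens out depth and drops shallower nuclei, 18, 24, 18 and 22 nuclei met the rule, or 0.291, 0.283, 0.152 and 0.215% of those left. Under the stricter rule the shares of all nuclei were 0.222, 0.148, 0.134 and 0.0979%, again with overlapping intervals. The in vivo share was then above the post-mortem share within each fixation, so the order of the harvests depended on the rule.

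**Figure D2:**
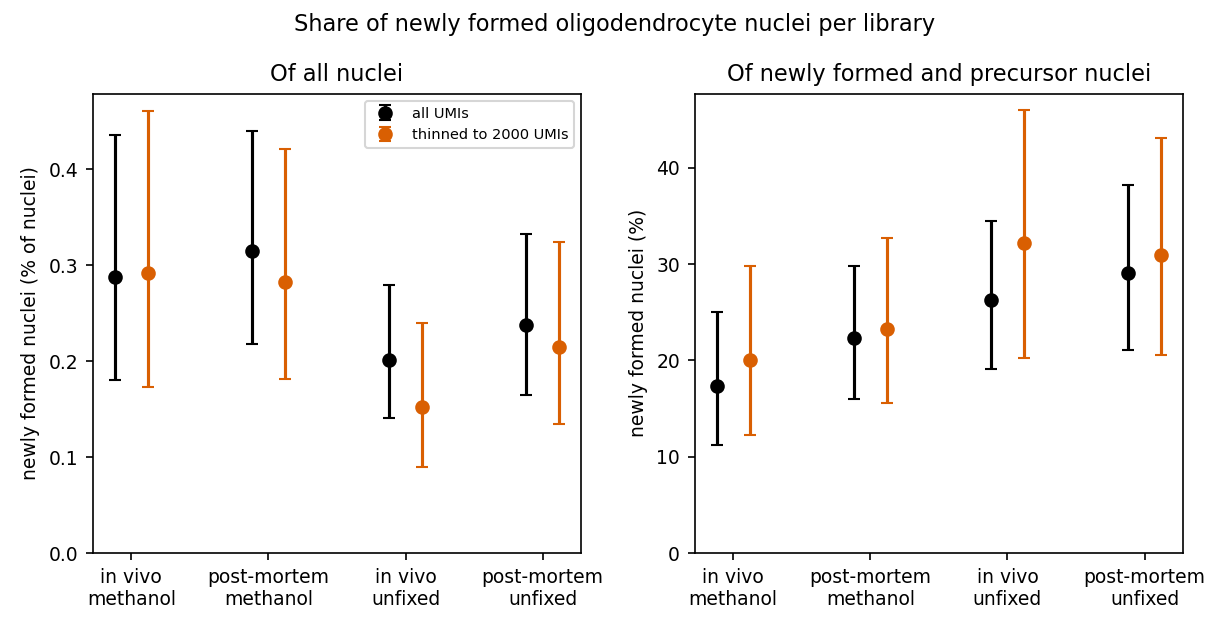
Newly formed nuclei as a share of all nuclei, and of newly formed and precursor nuclei together (y axes, %), in the 4 libraries (x axis), for all UMIs and after thinning to 2000 UMIs, with exact 95% intervals as bars. Over all UMIs the shares of all nuclei lie between 0.202 and 0.315% with overlapping intervals.

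The newly formed nuclei had median depths of 3680, 2589, 1952.5 and 2394 UMIs, and 374628 UMIs in all, which limits what can be seen of rare transcripts. Across the libraries 7649 to 17854 nuclei were kept, with median depths of 3206 to 8380 UMIs, and between 61 and 210 barcodes were shared by any pair of libraries. A doublet caller marked 11 of the 126 nuclei, which were kept, and the calls without them are given under the processing alternatives. Other cell types' RNA was present at differing levels. The 22 neuron markers outside the rule summed to 3628 and 1613 CPM in newly formed nuclei of the in vivo and post-mortem methanol libraries, and to 7866 and 8036 CPM in those of the in vivo and post-mortem unfixed libraries, against 32093 to 37321 CPM in Slc17a7 nuclei. Between 16 and 21 of the 22 were detected per library. The 12 vascular markers summed to 0 to 20.6 CPM, with 11 of them, Cldn5 among them, at 0 in every library, the 13 microglial markers to 21.2 to 356 CPM, with Siglech and Tyrobp at 0 in every library, and the 15 astrocyte markers to 212 to 615 CPM, with Gfap and Aldh1l1 at 0. Of 8 fibroblast markers, Apod alone was detected, a gene that oligodendrocytes also express.

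Against precursors, newly formed nuclei showed a broad exchange of programmes: stage and myelin genes were higher, and genes of the dividing, receptor-rich precursor were lower. Precursors were 407 nuclei with at least 2 UMIs of Pdgfra, a UMI of Cspg4 or Vcan and at most 1 UMI of Enpp6, Gpr17 and Bmp4 together, 105, 118, 101 and 83 per library. Counts were summed per library and class and compared with edgeR's quasi-likelihood test, blocked by library, with Benjamini-Hochberg adjustment at 0.05 over 3346 genes, the genes of the rules left out. Of these genes 561 (16.8%) were higher and 641 (19.2%) lower in newly formed nuclei, and the median log2 fold change of all genes tested was 0.00469. Because the classes were set by transcripts, genes that go with those of the rules had to differ, so that counts in the lists below describe the class and are no independent evidence for it.

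Genes of the newly formed stage were among the higher ones. Of 38 on the list, 4 belong to the rule and 28 passed the count filter; 25 of those were higher, 1 was lower and 2 did not pass the test, with a median log2 fold change of 2.97. Regulators come first. Tcf7l2, an HMG-box transcription factor that works with beta-catenin, had 1803, 1193, 1897 and 1574 CPM in newly formed nuclei, against 165, 94.8, 203 and 131 CPM in precursors. The classes did not overlap, and the log2 fold change was 3.51 ± 0.22 (SE, adjusted p = 2.87e-08). St18, a zinc finger transcription factor, had 2450.4, 2899, 2016 and 2428 CPM in newly formed nuclei, against 139, 48.7, 36.01 and 135 CPM in precursors (log2 4.89 ± 0.32, adjusted p = 6.22e-08). Myrf, the transcription factor that switches on myelin genes, had far fewer transcripts, 212, 177, 79.1 and 82.3 CPM in newly formed nuclei and 19.2, 27.1, 18.01 and 21.2 CPM in precursors, and was higher by 2.74 ± 0.36 on the log2 scale (adjusted p = 2.46e-05). Zeb2, a transcription factor needed for myelination, was also higher, with 2387, 1771, 2082 and 1574 CPM in newly formed nuclei and 688, 569, 468 and 542 CPM in precursors. Among 25 lineage transcription factors tested, 11 were higher and 7 lower, among the lower ones Etv5 and the homeobox factor Prrx1. The background over all genes tested was 16.8% higher and 19.2% lower. DESeq2 called 6 higher and 7 lower, and without called doublets 8 of 22 were higher and 8 lower, with a median of 0.11 against 0.52 with them.

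Genes of signalling, cytoskeleton and adhesion made up most of the abundant stage genes. Frmd4a, which encodes a FERM domain scaffold protein and lies at chr2:4017717-4614043, had 9886, 5864, 9632 and 7336 CPM in newly formed nuclei, against 307, 217, 522 and 389 CPM in precursors (log2 4.59 ± 0.24, adjusted p = 7.9e-09). Every newly formed value exceeded every precursor value by over 10-fold. Fyn, a Src-family kinase that relays axonal contact to process outgrowth, had 3437, 1948, 3939.7 and 2788 CPM in newly formed nuclei and 239.7, 227, 329 and 209 CPM in precursors (log2 3.60 ± 0.22, adjusted p = 2.87e-08). Pik3r3, a regulatory subunit of PI3 kinase, had 2196, 1809, 1989.6 and 1533 CPM in newly formed nuclei and 62.3, 92.05, 67.5 and 88.5 CPM in precursors. Nfasc, the adhesion protein neurofascin, had 4052, 2806, 3307 and 2778 CPM in newly formed nuclei and 170.2, 119, 234 and 177 CPM in precursors. None of these ranges overlapped. Kif19a, a kinesin motor, and Prom1, the membrane protein prominin 1, were nearly absent from precursors, with 6 and 0 UMIs there. Kif19a reached 414, 410.2, 501 and 309 CPM in newly formed nuclei (log2 6.32 ± 0.33) and Prom1 74.3, 158, 105 and 123 CPM, at least 50.6-fold higher against a floor of 3 counts over the precursors. Itpr2, the IP3 receptor that releases calcium from the endoplasmic reticulum, rose less, with 1506, 774, 1502 and 761 CPM in newly formed nuclei and 359.6, 384, 409.6 and 283 CPM in precursors (log2 1.64 ± 0.23, adjusted p = 3.57e-05). Of 24 tested genes of cytoskeleton and process growth, 17 were higher and 1 was lower, with a median of 0.99; Tubb4a, the oligodendrocyte-enriched beta-tubulin, and the microtubule-associated Map1b were among those higher. Tubb4a had 796, 1137, 764 and 1039 CPM in newly formed nuclei, against 103, 70.4, 63.02 and 103 CPM in precursors.

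**Figure D3:**
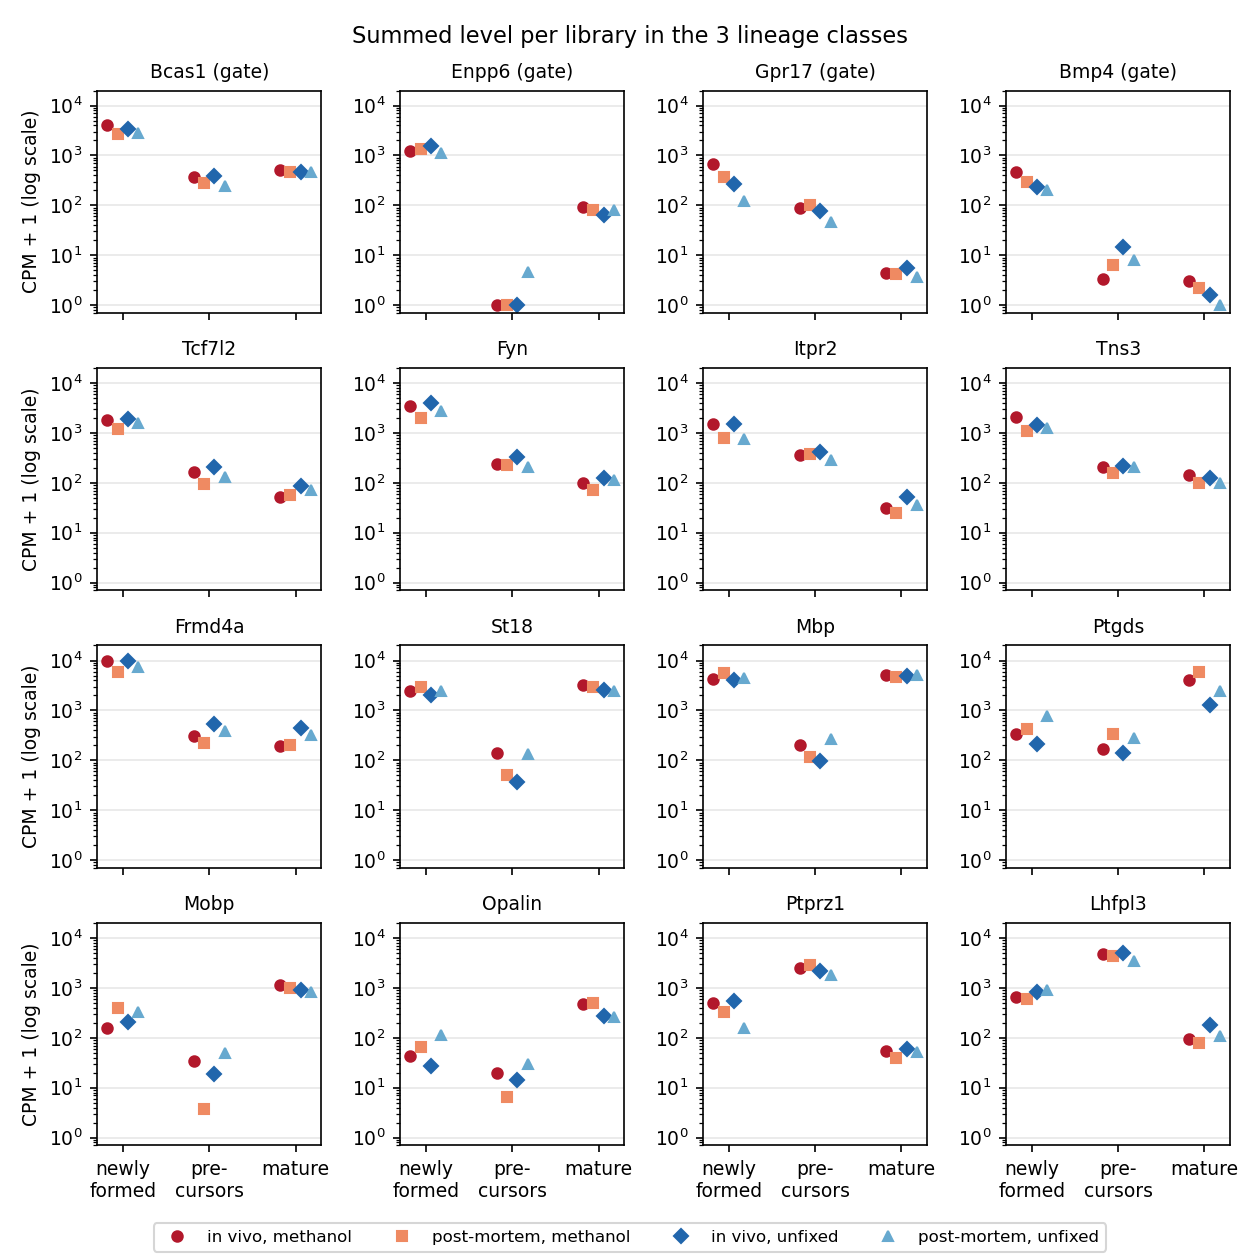
Levels of selected genes (y axis, CPM + 1 on a log scale) in newly formed nuclei, precursors and mature oligodendrocytes (x axis), 1 point per library; the first 4 genes belong to the rule. Fyn, Tcf7l2 and Itpr2 lie highest in newly formed nuclei in all 4 libraries.

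Myelin genes were on in newly formed nuclei. Of 35 listed, 19 could be tested; 16 were higher, none was lower, even at an unadjusted p under 0.05 or with DESeq2, and 3 did not pass, with a median log2 fold change of 2.97. Mbp, myelin basic protein, had 4285, 5537, 4124 and 4445 CPM in newly formed nuclei, against 201, 114, 94.5 and 273 CPM in precursors (log2 4.86 ± 0.29, adjusted p = 2.87e-08). Mag, myelin-associated glycoprotein, had 955, 1911, 382 and 586 CPM in newly formed nuclei and 35.96, 40.6, 31.5 and 77.9 CPM in precursors. These ranges did not overlap either, and in newly formed nuclei Mbp and Mag were highest in the post-mortem methanol library, where 17 of 34 nuclei lay in the mature range; the part of those nuclei in the levels was not tested. Lipid enzymes that build the myelin membrane followed, against a background of 16.8% of all genes tested higher and 19.2% lower. Of 16 genes of sphingolipid and fatty acid synthesis tested, 9 were higher and 2 lower, or 4 and 1 with DESeq2; Ugt8a, which makes galactosylceramide, had 446, 634, 264 and 391 CPM in newly formed nuclei and 158, 141, 104 and 95.6 CPM in precursors, and Fa2h, the fatty acid 2-hydroxylase, 477, 457, 567 and 514 CPM in newly formed nuclei and 117, 73.1, 135 and 120.4 CPM in precursors. Under the stricter rule 11 of 13 myelin genes and 25 of 28 stage genes tested were higher than in precursors. The myelin median was then 2.10, and it was 2.22 without the post-mortem methanol library.

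The genes that were lower were those of the precursor itself. Of 30 precursor genes listed, 3 belong to the rules and 25 were tested; 21 were lower, 1 was higher and 3 did not pass, with a median log2 fold change of -1.96. The ETS transcription factors Etv4 and Etv5, which answer growth factor signalling, had no UMI in the 126 newly formed nuclei, against 301 and 162 UMIs in precursors, at least 29.1-fold and 15.7-fold lower against a floor of 3 counts over the class. Cdo1, cysteine dioxygenase, likewise had no UMI against 185. Top2a, the topoisomerase of dividing cells, had no UMI in newly formed nuclei, against 125, 111, 153 and 74.3 CPM in precursors, and was at least 14.3-fold lower. The 30 mitotic genes summed to 31.8 to 83.9 CPM in newly formed nuclei and 623 to 1004 CPM in precursors, and Top2a was the only one with enough counts to test. Mature oligodendrocytes, which do not divide, had 56.4 to 87.4 CPM and Slc17a7 nuclei 39.5 to 47.8 CPM. Not every precursor gene fell. Tnr, which encodes the extracellular matrix protein tenascin-R, was higher, with 7733, 3999, 7748 and 4064 CPM in newly formed nuclei and 2709, 2645, 3282 and 2273 CPM in precursors (log2 1.09 ± 0.21, adjusted p = 0.000666). Sox6, an SRY-box factor, had overlapping levels, 2175, 1212, 1594 and 1039 CPM in newly formed nuclei and 1731, 1752, 1476 and 1097 CPM in precursors, and did not pass the test (adjusted p = 1).

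Among excitability genes more were lower than higher against precursors, which are known to carry voltage-gated channels and synaptic receptors. Of 25 ion channel and transporter genes tested, 13 were lower and 7 higher, and of 18 glutamate receptor genes 9 were lower and 1 higher, or 6 and none with DESeq2. The background over all genes tested was 19.2% lower and 16.8% higher. Kcnd2, an A-type potassium channel, had 424, 326, 962 and 463 CPM in newly formed nuclei, against 3905, 4231, 3408 and 3221 CPM in precursors (log2 -2.82 ± 0.28, adjusted p = 1.71e-06). Scn1a, a sodium channel, had 21.2, 27.97, 52.7 and 41.2 CPM in newly formed nuclei and 249, 276, 212 and 273 CPM in precursors. Grm5, a metabotropic glutamate receptor, had 169.7, 177, 474 and 453 CPM in newly formed nuclei and 1273, 1383, 1058 and 1292 CPM in precursors (log2 -2.03 ± 0.30). All 3 ranges were apart. Ionotropic subunits did not move together: Grin3a was lower (-2.63 ± 0.27 on the log2 scale), Grik2 was higher (0.60 ± 0.19) and Gria2 did not pass the test (0.48 ± 0.20). Both last results depended on single libraries: Grik2 lost its call without the in vivo methanol, the in vivo unfixed or the post-mortem unfixed library (adjusted p = 0.131, 0.0932 and 0.0755), and Gria2 passed without the post-mortem methanol library (adjusted p = 0.0338). Neuron markers moved with these genes, 6 of 11 tested being lower in newly formed nuclei, and their sum was 1613 to 8036 CPM there and 8238 to 15862 CPM in precursors; their part in the difference was not tested. Among transporters, Slc44a1, a choline transporter, had 1146, 923, 1028 and 761 CPM in newly formed nuclei and 137, 168, 81.03 and 135 CPM in precursors and was higher (log2 2.92 ± 0.24).

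Receptors and pathways that act on the lineage held genes that moved in both directions. Lpar1, a receptor for lysophosphatidic acid, was higher, with 180.3, 261, 119 and 103 CPM in newly formed nuclei and 7.19, 0, 0 and 14.2 CPM in precursors (log2 4.89 ± 0.56). Ednrb, the endothelin B receptor, was lower, with 21.2, 9.32, 0 and 10.3 CPM in newly formed nuclei and 218, 338, 225 and 173 CPM in precursors (log2 -4.38 ± 0.44). Erbb4, a neuregulin receptor, had overlapping levels, 2556, 2098, 2108 and 1729 CPM in newly formed nuclei and 2589, 2612, 2165 and 1749 CPM in precursors. For the pathway counts that follow, the background over all genes tested was 16.8% higher and 19.2% lower. With 5 to 10 genes tested per pathway, the counts are a description only. Of the BMP and TGF-beta pathway, to which Bmp4 belongs, 6 genes could be tested, and 1 (16.7%), the receptor Acvr2a, was lower (log2 -1.16 ± 0.39), near the background. Acvr2a lost that call without the in vivo methanol, post-mortem methanol or in vivo unfixed library (adjusted p = 0.08, 0.199 and 0.0708). DESeq2 did not call it either (adjusted p = 0.155). Of the Wnt pathway, 3 of 10 tested genes were higher and 1 was lower: Tcf7l2, its relative Tcf7l1 and the formin-family regulator Daam2 rose, and Rnf43, a ubiquitin ligase that removes Wnt receptors, fell. Of 5 Notch pathway genes tested, Dner and Maml3 were lower. The call of Maml3 was lost whichever library was left out, with adjusted p between 0.052 and 0.19, and in DESeq2 (adjusted p = 0.186).

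**Figure D4:**
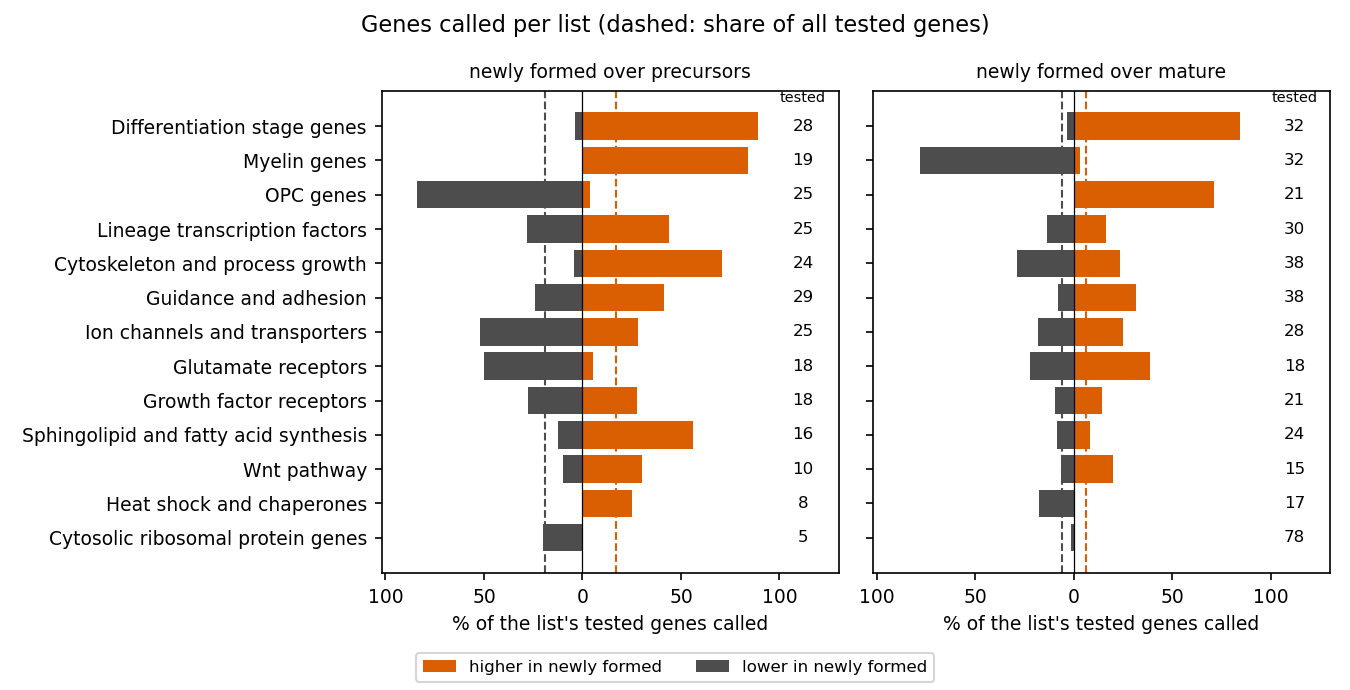
Genes of each list that were higher or lower in newly formed nuclei than in precursors and than in mature oligodendrocytes (x axis, percent of the genes tested), with the number tested at the right and the share of all tested genes as dashed lines. Most stage genes tested were higher in both comparisons, while myelin genes were mostly higher than in precursors and mostly lower than in mature nuclei.

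Against mature oligodendrocytes, newly formed nuclei kept precursor genes and stage genes and lacked part of the myelin programme. Mature oligodendrocytes were 4796 nuclei with at least 3 UMIs of Mog, Mag and Aspa together making up at least 0.1% of UMIs, no Pdgfra and at most 1 UMI of Enpp6, Gpr17 and Bmp4 together, 861, 1499, 1107 and 1329 per library. The same test ran over 8936 genes; 542 (6.07%) were higher and 539 (6.03%) lower in newly formed nuclei, with a median log2 fold change of -0.12 over all genes. The count of lower genes moved more than that of higher ones: it was 303 with DESeq2, 329 without the library block, 915 under the stricter rule and 277 without the in vivo unfixed library. More genes could be tested here because mature nuclei were many, so the counts of the comparisons are not set against each other.

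Of 32 stage genes tested, 27 were higher, 1 was lower and 4 did not pass, with a median log2 fold change of 2.39. Fyn had 3437, 1948, 3939.7 and 2788 CPM in newly formed nuclei, against 96.6, 70.04, 127 and 111 CPM in mature oligodendrocytes (log2 4.83 ± 0.23, adjusted p = 7.93e-16). Tcf7l2 had 49.96, 55.2, 85.5 and 70.5 CPM in mature oligodendrocytes, so that its newly formed levels above were higher by 4.57 ± 0.23 on the log2 scale (adjusted p = 1.61e-15). Itpr2 had 1506, 774, 1502 and 761 CPM in newly formed nuclei and 29.98, 24.01, 50.7 and 35.5 CPM in mature oligodendrocytes (log2 4.92 ± 0.24). All 3 stood over 20-fold higher in every library. Neu4, a sialidase, was almost confined to newly formed nuclei in this comparison, with 233, 168, 171 and 195 CPM there and 1.33, 0.400, 0.634 and 0 CPM in mature oligodendrocytes (log2 8.14 ± 0.49, adjusted p = 1.2e-13). Afap1l2, an actin-associated adaptor protein, had 212, 158, 237 and 165 CPM in newly formed nuclei and 2.66, 0, 2.53 and 0.455 CPM in mature oligodendrocytes. Ppfibp1, liprin beta 1, had 1209, 531, 1133 and 689 CPM in newly formed nuclei and 11.99, 9.20, 20.3 and 10.5 CPM in mature oligodendrocytes (log2 6.002 ± 0.24, adjusted p = 4.96e-17). Slc12a2, the chloride importer NKCC1, was the stage gene that was lower; it is named here after its values were seen. Neither median-of-ratios factors nor DESeq2 called any stage gene lower.

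Precursor genes that newly formed nuclei still carried set them apart from mature ones. Of 21 tested, 15 were higher and 6 did not pass (median 2.38); none was lower in edgeR or DESeq2, with 1 lower at an unadjusted p under 0.05. Under the stricter rule 15 were higher and 2 lower, and without a filter on low counts 1 of 29 was lower. Tnr had 7733, 3999, 7748 and 4064 CPM in newly formed nuclei, against 47.96, 51.2, 148 and 75.99 CPM in mature oligodendrocytes (log2 6.18 ± 0.29, adjusted p = 7.93e-16). Sox6 had 2175, 1212, 1594 and 1039 CPM in newly formed nuclei and 31.3, 13.6, 35.5 and 22.8 CPM in mature oligodendrocytes (log2 5.82 ± 0.25, adjusted p = 9.02e-17). Vcan, the matrix proteoglycan versican, had 583, 270.3, 567 and 422 CPM in newly formed nuclei and 11.3, 7.20, 24.1 and 9.10 CPM in mature oligodendrocytes. Each of these lay over 20-fold higher in every library. Sox4, an SRY-box factor of immature cells, was higher with fewer counts, 106, 83.9, 132 and 41.2 CPM in newly formed nuclei and 5.995, 6.80, 8.24 and 6.83 CPM in mature oligodendrocytes (log2 3.56 ± 0.45). Of 38 guidance and adhesion genes tested, 12 were higher and 3 lower, against 6.07% of all genes tested higher and 6.03% lower. Sema5a, a transmembrane semaphorin, had 1167, 839, 1107 and 597 CPM in newly formed nuclei and 57.3, 52.8, 70.3 and 53.7 CPM in mature oligodendrocytes (log2 3.89 ± 0.22). Cadm2, a synaptic cell adhesion molecule, had 8422, 6013, 5824 and 5196 CPM in newly formed nuclei and 1096, 1115, 1382 and 1254 CPM in mature oligodendrocytes (log2 2.31 ± 0.22). Slc1a1, a glutamate transporter, had 1156, 718, 725 and 484 CPM in newly formed nuclei and 24.6, 19.2, 49.4 and 35.5 CPM in mature oligodendrocytes (log2 4.53 ± 0.27).

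Most myelin genes were below their mature levels. Of 32 tested, 25 were lower, 1, the connexin gene Gjc3, was higher and 6 did not pass, with a median log2 fold change of -1.58. Gjc3 lost its call without the in vivo unfixed or the post-mortem unfixed library (adjusted p = 0.197 and 0.122). Mbp did not pass the test, with 4285, 5537, 4124 and 4445 CPM in newly formed nuclei and overlapping 5127, 4652, 5001 and 5107 CPM in mature oligodendrocytes (log2 -0.18 ± 0.21, adjusted p = 0.713). Among regulators, St18 also overlapped, with 3281, 2906, 2516 and 2432 CPM in mature oligodendrocytes (adjusted p = 0.562). Opalin, a late myelin membrane glycoprotein, had 42.4, 65.3, 26.4 and 113 CPM in newly formed nuclei and 481, 501, 269 and 262 CPM in mature oligodendrocytes (log2 -2.63 ± 0.32). Ptgds, prostaglandin D synthase, had 329, 419.5, 211 and 761 CPM in newly formed nuclei and 4072, 5899.8, 1259.8 and 2407 CPM in mature oligodendrocytes (log2 -2.98 ± 0.29). Il33, a nuclear cytokine of mature oligodendrocytes, had 42.4, 55.9, 39.5 and 41.2 CPM in newly formed nuclei and 472, 511, 274 and 400.4 CPM in mature oligodendrocytes (log2 -3.28 ± 0.30, adjusted p = 7.96e-10). Their ranges did not overlap. Under the stricter rule the median of the myelin list lay further down, at -3.17, with 27 of 32 lower. The 32 myelin genes outside the rules together took 9737 to 21656 CPM in newly formed nuclei, 1530 to 2428 CPM in precursors and 19689 to 41199 CPM in mature oligodendrocytes.

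Outside the myelin list, several genes of mature cells were lower too. Ccp110, a centriolar protein, had 42.4, 83.9, 39.5 and 72.02 CPM in newly formed nuclei and 462, 430.2, 366 and 357 CPM in mature oligodendrocytes (log2 -2.80 ± 0.29, adjusted p = 1.11e-08). Atp1b3, a beta subunit of the sodium pump, had 10.6, 37.3, 26.4 and 20.6 CPM in newly formed nuclei and 197, 187, 106 and 131 CPM in mature oligodendrocytes. Gprc5b, an orphan G protein-coupled receptor, had 31.8, 65.3, 13.2 and 20.6 CPM in newly formed nuclei and 286, 262, 136 and 189 CPM in mature oligodendrocytes (log2 -2.77 ± 0.34). Of 17 heat shock and chaperone genes tested none was higher and 3 (17.6%) were lower (2 with DESeq2), against 6.03% of all genes tested lower. Among the 3 was the small heat shock gene Cryab (log2 -1.996 ± 0.30, adjusted p = 8.33e-06). Of 7 immediate early genes none passed in edgeR, at an unadjusted p under 0.05 or in DESeq2. With 6.07% of all genes called higher and 6.03% lower, none of 7 lies near the background. Neat1, the long noncoding RNA that builds paraspeckles, stood between the classes, at 84.9, 429, 211 and 658 CPM in newly formed nuclei and 887, 1117, 759 and 1581 CPM in mature oligodendrocytes (log2 -1.85 ± 0.26); precursors had 38.4, 21.7, 49.5 and 81.4 CPM. Daam2, a Wnt pathway gene, showed the same order, with 95.5, 131, 92.2 and 257 CPM in newly formed nuclei, 460.3, 355, 456 and 391 CPM in mature oligodendrocytes and 14.4, 5.41, 9.003 and 17.7 CPM in precursors. These are sums over newly formed nuclei of which 18.2, 50.0, 16.7 and 41.2% lay in the mature range. The part of those nuclei in the levels of Neat1 and Daam2 was not tested.

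Within the newly formed nuclei, those with more Enpp6 than Gpr17 UMIs (104 nuclei, 13, 29, 33 and 29 per library) were set against those with more Gpr17 than Enpp6 (15 nuclei, 7, 4, 2 and 2), and 7 ties were left out. The Enpp6-leaning nuclei had more myelin RNA and the Gpr17-leaning nuclei more precursor RNA. Of the Enpp6-leaning nuclei 40 of 104 lay in the mature range, with under 1% of UMIs from stage genes and at least 1% from myelin genes, against 0 of 15 Gpr17-leaning nuclei. The part of those nuclei in the differences was not tested. Among nuclei with at least 1% of UMIs from stage genes, the median share of myelin UMIs was 1.14% in 63 Enpp6-leaning nuclei and 0.364% in 11 Gpr17-leaning nuclei. Of 613 genes tested, 77 (12.6%) were higher and 60 (9.79%) lower in the Enpp6-leaning nuclei, with a median log2 fold change of 0.25. The counts rest on the methanol libraries: without the post-mortem methanol library 6 were higher and none lower in edgeR (62 lower at an unadjusted p under 0.05), with 2 Gpr17-leaning nuclei in each unfixed library, and without the in vivo methanol library 5 were higher and 5 lower. With median-of-ratios factors, which shifted all genes by 0.23 on the log2 scale, 119 were higher and 60 lower, and without a filter on low counts 119 were higher and 3 lower. Of 8 myelin genes tested 7 were higher and none lower (median 3.87, or 3.63 with Trf set to its bound); of 17 precursor genes 9 were lower and none higher (median -1.89); of 23 stage genes 11 were higher and none lower (median 1.42). Counts of none here also hold at an unadjusted p under 0.05, and DESeq2 gave none either. Without the filter on low counts none of 28 precursor genes was lower in edgeR, against 9 with it and 9 in DESeq2.

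Mbp had 6041, 6283, 4529.9 and 4396 CPM in Enpp6-leaning nuclei, against 639, 281, 0 and 0 CPM in Gpr17-leaning nuclei (log2 4.48 ± 0.61, adjusted p = 0.00133). Frmd4a had 14639, 6688, 10579 and 7913 CPM in Enpp6-leaning nuclei, against 0, 188, 0 and 0 CPM in Gpr17-leaning nuclei, where it came to 2 UMIs in all (log2 7.71 ± 0.78, adjusted p = 7.97e-05). Nfasc had 5595, 3199.97, 3618 and 2874 CPM in Enpp6-leaning nuclei and 692, 93.8, 174 and 0 CPM in Gpr17-leaning nuclei. The ranges were apart for each of these genes, but in each unfixed library the Gpr17-leaning values rest on 2 nuclei. Those nuclei held 1564 and 4196 UMIs in vivo and 811 and 2550 UMIs post-mortem. Values of 0 CPM there lie under the floor of 3 counts and cannot be told from a low level. Cnksr3, a scaffold of the Ras pathway, had 228 UMIs in Enpp6-leaning and none in Gpr17-leaning nuclei, at least 9.39-fold higher, and Trf, transferrin, 388 and none, at least 15.98-fold higher. Tcf7l2 had 2509, 1323, 2055 and 1623 CPM in Enpp6-leaning nuclei and 586, 375, 174 and 0 CPM in Gpr17-leaning nuclei (log2 2.67 ± 0.58, adjusted p = 0.00697). In the other direction, Cntn6, a contactin, had 0, 64.00, 72.4 and 33.8 CPM in Enpp6-leaning nuclei and 373, 844, 694 and 1190.1 CPM in Gpr17-leaning nuclei, from 14 and 24 UMIs. The precursor gene Pcdh15, a protocadherin, had 66.02, 267, 622 and 812 CPM in Enpp6-leaning nuclei and 1437, 2439, 1215 and 2678 CPM in Gpr17-leaning nuclei (log2 -2.28 ± 0.59). Without the post-mortem methanol library Trf, Cnksr3, Cntn6, Tcf7l2 and Pcdh15 had adjusted p between 0.065 and 0.188, and without the in vivo methanol library these genes other than Cntn6 had adjusted p between 0.0683 and 0.161. Fyn and Tnr, which were high in the class as a whole, had overlapping levels and did not pass the test. Fyn had 3004, 1611, 4023 and 2784 CPM in Enpp6-leaning nuclei and 5003, 4409, 1909.7 and 2083 CPM in Gpr17-leaning nuclei (log2 -0.05 ± 0.48, adjusted p = 0.95), and Tnr differed by -0.06 ± 0.41 on the log2 scale.

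Methanol-fixed and unfixed newly formed nuclei were compared within each harvest, as log2 ratios with exact conditional 95% intervals that cover counting error only. Of 1667 genes with at least 40 UMIs over the 4 libraries, 30 (1.8%) were at least 2-fold higher in both pairs and 55 (3.3%) at least 2-fold lower, and the median log2 ratio over all genes was -0.06 in the in vivo pair and -0.05 in the post-mortem pair. Without nuclei called doublets 23 were higher and 28 lower, and under the stricter rule 16 were higher and 27 lower. Gpr37l1, a prosaposin receptor of glia, had 361 CPM in the in vivo methanol library, against 65.9 CPM in the in vivo unfixed library, and 233 CPM in the post-mortem methanol library, against 20.6 CPM in the post-mortem unfixed library. Its log2 ratio was 2.34 (1.09 to 4.16) in vivo and 3.21 (1.498 to 6.62) post-mortem. Cd81, a tetraspanin, had 700.1 CPM in the in vivo methanol library against 211 CPM in the in vivo unfixed one, and 951 CPM in the post-mortem methanol library against 298 CPM in the post-mortem unfixed one. Lamp1, a lysosomal membrane protein, gave log2 ratios of 1.96 (0.66 to 3.80) in vivo and 1.84 (0.82 to 3.13) post-mortem. Cpox, of haem synthesis, Rpl6, a ribosomal protein gene, and Aplp1, an amyloid precursor-like protein, were the other 3 with the largest ratios. Aplp1 had log2 ratios of 1.43 (0.48 to 2.59) in vivo and 1.84 (1.26 to 2.50) post-mortem. Under the stricter rule its post-mortem ratio was 0.86. In both pairs 12 of 32 measured stage genes were higher with methanol and 7 were lower, as were 9 and 5 of 22 myelin genes, with a median log2 ratio for myelin genes of 0.24 in each pair. The background over 1667 genes was 26.8% higher and 34.0% lower with methanol in both pairs at once. Stage genes turned, by the stricter rule, to 6 higher and 12 lower of 30, against 26.9 and 30.6% of 980 genes higher and lower. The level of Gpr17 in these nuclei was set in part by the rule. Its log2 ratios of 1.32 in vivo and 1.52 post-mortem are therefore a description only and give no result on methanol.

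The genes that were lower after methanol included neuronal ones. Meg3, a long noncoding RNA abundant in neurons, had 626 CPM in the in vivo methanol library, against 2609 CPM in the in vivo unfixed library, and 597 CPM in the post-mortem methanol library, against 2665 CPM in the post-mortem unfixed library. Its log2 ratios were -2.05 (-2.50 to -1.63) in vivo and -2.15 (-2.58 to -1.76) post-mortem. Single nuclei held 33 of its 59 UMIs in the in vivo methanol library and 26 of 64 in the post-mortem methanol library. They held 33 of 198 in the in vivo unfixed and 60 of 259 in the post-mortem unfixed library. Under the stricter rule the ratios of Meg3 were -2.70 in vivo and -1.39 post-mortem. Without called doublets its post-mortem ratio was -1.54. All 7 neuron markers with enough counts were lower in both pairs, with median log2 ratios of -0.77 in vivo and -2.29 post-mortem, and the sums of the 22 neuron markers given above moved the same way. Pde10a, a striatal phosphodiesterase, gave -2.63 (-4.01 to -1.60) in vivo and -3.60 (-7.01 to -1.90) post-mortem, and 23 of its 42 UMIs in the in vivo unfixed library came from 1 nucleus. Rarb, a retinoic acid receptor, gave -3.07 (-5.19 to -1.72) in vivo and -2.70 (-4.82 to -1.32) post-mortem. Top2b, with 50 UMIs in newly formed nuclei against 64 of Rarb, overlaps it on the opposite strand. AY036118, a long noncoding RNA gene that a predicted gene overlaps on the opposite strand, gave -2.89 (-4.15 to -1.92) and -2.88 (-3.99 to -2.01). Cntnap2 and Cacna2d3, an adhesion protein and a calcium channel subunit of neurons, completed the 6. The part of free neuronal RNA in these ratios was not tested.

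Myelin genes were lower in in vivo than in post-mortem newly formed nuclei. Of the same 1667 genes, 28 (1.68%) were at least 2-fold higher in both pairs and 45 (2.7%) at least 2-fold lower in the in vivo libraries. Of 22 myelin genes measured, 18 were lower in both pairs, 10 of them at least 2-fold, and none was higher in both, with median log2 ratios of -1.23 in the methanol pair and -1.14 in the unfixed pair. The background over 1667 genes was 33.2% higher and 26.3% lower in vivo in both pairs at once. Mog had 244 CPM in the in vivo methanol library, against 839 CPM in the post-mortem methanol library, and 132 CPM in the in vivo unfixed library, against 556 CPM in the post-mortem unfixed library. Its log2 ratios were -1.76 (-2.51 to -1.11) with methanol and -2.02 (-3.22 to -1.09) unfixed. Aspa, which breaks down N-acetylaspartate, gave -2.66 (-4.48 to -1.43) with methanol and -1.87 (-3.52 to -0.68) unfixed, and Hapln2, a link protein of nodal matrix, -1.80 (-3.01 to -0.83) and -1.97 (-4.10 to -0.54). Anln, an actin-binding septin partner, gave -1.84 (-3.50 to -0.62) and -1.91 (-3.76 to -0.62). Nuclei in the mature range made up 18.2 and 16.7% of newly formed nuclei in the in vivo libraries and 50.0 and 41.2% in the post-mortem libraries. That range is set in part by the myelin share itself, so these percentages are no separate observation. Their part in the difference was not tested. Under the stricter rule, which left 17 and 24 in vivo and 16 and 14 post-mortem nuclei, the picture was different: of 980 genes, 2 were higher and 3 lower by 2-fold or more in both pairs, while 2 of 12 myelin genes were higher and 3 lower in both, and the list's median was 0.15 with methanol and -0.39 unfixed. Stage genes leaned the other way, 18 of 32 being higher and 4 lower in both pairs, none by 2-fold, and 16 of 30 higher and 3 lower under the stricter rule, where 31.0% of 980 genes were higher and 22.3% lower.

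**Figure D5:**
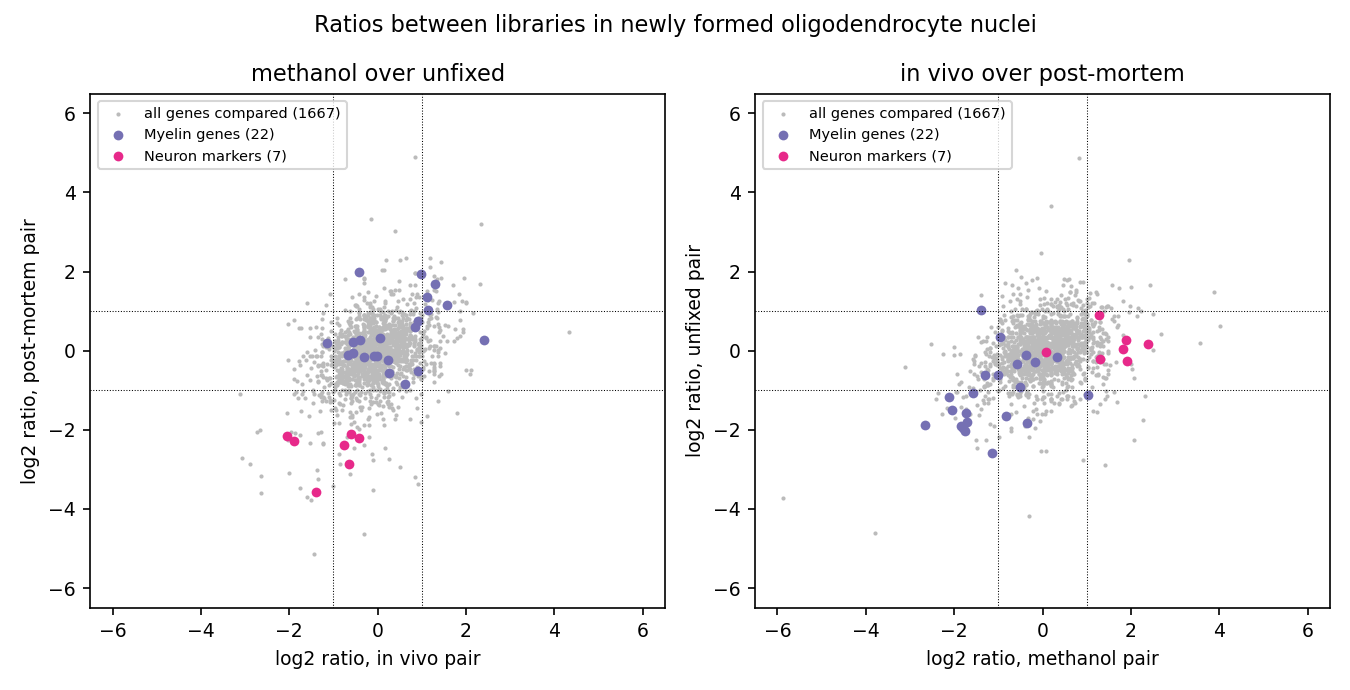
Log2 ratios of 1667 genes in newly formed nuclei, methanol over unfixed (left) and in vivo over post-mortem (right), with 1 pair of libraries on the x axis and the other on the y axis; dotted lines mark a 2-fold difference. Neuron markers lie below 0 in both pairs on the left, and 18 of 22 myelin genes lie below 0 in both pairs on the right.

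Other genes set the harvests apart as well. Grik1, a kainate receptor subunit, had 2 UMIs in the in vivo methanol library against 39 in the post-mortem methanol library, and 0 in the in vivo unfixed library against 15 in the post-mortem unfixed library. Its log2 ratio was -3.80 (-7.19 to -2.15) with methanol. Dpp10, a potassium channel auxiliary protein, was higher in vivo, at 1.95 (1.27 to 2.73) with methanol and 2.29 (1.58 to 3.13) unfixed, but 53 of its 76 UMIs in the in vivo methanol library came from 1 nucleus. Under the stricter rule the ratio of Dpp10 with methanol was -0.37. Without called doublets it was 0.52 with methanol and 1.10 unfixed. Meis2, a homeobox factor, gave 3.89 (1.78 to 9.81) and 1.48 (0.55 to 2.53), and Zeb1, a zinc finger factor, 1.83 (0.70 to 3.24) and 1.25 (0.38 to 2.21). For Meis2, 1 nucleus held 12 of 19 UMIs in the in vivo methanol library, and the post-mortem methanol library held 1 UMI. Without called doublets the unfixed ratio of Meis2 was 0.49. Epha6 and Robo2, axon guidance receptors, and Dpp6, a relative of Dpp10, completed the 6 that were higher. In the in vivo methanol library 1 nucleus gave 8 of 16 UMIs of Epha6, 12 of 19 of Robo2 and 13 of 27 of Dpp6. The part of single nuclei in these ratios was not tested. Eif2s3y, a Y-linked translation factor gene, had no UMI in in vivo newly formed nuclei, against 33 in the post-mortem methanol and 8 in the post-mortem unfixed library. Over all nuclei it stood at 0.986 and 0.671 CPM in the in vivo methanol and unfixed libraries, against 124 and 83.5 CPM in the post-mortem methanol and unfixed libraries. The other Y-linked genes Ddx3y and Uty were present in all 4 libraries, Uty at 91.4 and 78.8 CPM in vivo and 150 and 126 CPM post-mortem, and Xist was at most 3.42 CPM in each. Eif2s3y thus separated the harvests in all nuclei, and animal and harvest cannot be told apart.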

How the data were processed

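Nuclei of 4 brain samples were profiled with the SeekOne DD 3' droplet kit, per the labels' protocols. The authors deposited, per library, whole-number UMI counts per gene and barcode with no normalization. Reads had been assigned to the mm10 build (per the submitters' processing notes), with an aligner, a cell caller, an annotation and a strand setting that are not given in the sources used here. Gene positions came from GENCODE vM21 on that build, which held 32158 of the 32285 gene identifiers.

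Nuclei kept after the filters of the report held 64079961 to 82366500 UMIs per library. Doublets were called with Scrublet in scanpy 1.11.5 (Python 3.11.15) at an expected rate of 6% and removed only in an alternative. Counts were summed per library and class and tested with edgeR 4.0.16 in R 4.3.3 (TMM, filterByExpr, library as block); p-values measure the spread over 4 libraries, and the labels do not say whether fixed and unfixed nuclei of a harvest came from the same brain. Replicate numbers are 1 throughout, so the shared library is the only pairing. Condition ratios added 0.5 counts, with exact conditional intervals. Counting intervals and floors of 3 counts cover counting error only.

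Tested on simulated counts with 200 genes changed by 8-fold, the test recovered 84% against precursors, 81% against mature nuclei and 78.5% between the Enpp6- and Gpr17-leaning nuclei, with 7, 5 and 3 false calls. The simulated counts had a fixed dispersion, no differences between libraries other than depth, and changed genes above a minimum count. Recovery and false calls in the real counts cannot be read from this simulation. Members and gene lists were chosen with earlier results of these data known. Named genes are the 12 per direction with the largest fold change among calls of at least 2-fold, with the same direction in 4 libraries and at least 50 CPM, and from each list the 4 most abundant members and up to 3 called members of largest fold; in the condition comparisons, the 6 per direction whose smaller ratio was largest. From these, the text describes those with a known role. Genes outside this rule are Slc12a2, the Y-linked genes and Xist, and genes with opposite directions in both pairs. Alternatives were median-of-ratios factors, DESeq2 1.42.0, no filter, no block, no doublets, 1000 UMIs, a stricter rule, other neuron, UMI or count minimums, a pseudocount of 2, thinning to 2000 UMIs and each library left out.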

Additional observations from a re-analysis of the deposited data

Results flagged for a closer look

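For 5 genes the log2 ratio of newly formed nuclei was over 2-fold in opposite directions in both pairs of libraries, with both counting intervals clear of 0. Nrg3, a neuregulin, had an in vivo over post-mortem ratio of 2.32 with methanol and -1.14 unfixed, Kcnh7, a potassium channel, 2.28 and -1.76, Kcnma1, the BK potassium channel, 1.70 and -1.30, and Asic2, an acid-sensing channel, 1.63 and -1.04. Single nuclei held much of these counts. In the in vivo methanol library 1 nucleus gave 40 of 50 UMIs of Nrg3, 17 of 23 of Kcnh7, 10 of 18 of Kcnma1 and 15 of 28 of Asic2, and in the post-mortem unfixed library 1 nucleus gave 37 of 80, 20 of 45, 14 of 39 and 30 of 64. Ppm1l, a protein phosphatase gene, had a methanol over unfixed ratio of 1.11 in vivo and -1.66 post-mortem, with 16 of 57 UMIs from 1 nucleus in the in vivo methanol library and 12 of 44 in the post-mortem unfixed library. With 1 library per group the differences between pairs were not tested, nor was the part of single nuclei in them.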

How the results depend on the processing

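The counts of 561 higher and 641 lower genes against precursors moved beyond 1.5 times to 365 higher with DESeq2 and to 1189 lower without a filter on low counts; leaving out 1 library gave 445 to 534 higher and 526 to 702 lower. Against mature oligodendrocytes the 539 lower genes became 303 with DESeq2, 329 without the library block and 915 under the stricter rule, and 277 to 442 with 1 library left out, 277 being without the in vivo unfixed library. The 542 higher genes were 447 to 498 with 1 library left out. Between Enpp6- and Gpr17-leaning nuclei, 119 were higher with median-of-ratios factors, 119 higher and 3 lower without a filter, and 5 to 106 higher and 0 to 61 lower with 1 library left out; the stricter rule could not be fitted, since a library then held no Gpr17-leaning nuclei. Without the library block the counts were otherwise 537 and 583 against precursors, 434 higher against mature nuclei, and 81 and 51 between the leaning groups. Under the stricter rule newly formed nuclei made up 0.148% in the post-mortem methanol, 0.134% in the in vivo unfixed and 0.0979% in the post-mortem unfixed library.

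The 30 genes higher and 55 lower after methanol became 84 and 141 at a minimum of 20 UMIs, 11 and 17 at 100 UMIs, and 16 and 27 under the stricter rule, an alternative added after seeing the data; without doublets 28 were lower. The 28 genes higher and 45 lower in vivo became 65 and 103 at 20 UMIs, 9 and 16 at 100 UMIs, and 2 and 3 under the stricter rule, also added later. The UMI minimum changes how many genes are compared; the cause of the other moves was not tested.

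Signs turned mostly in genes whose main value was not a call, with Dpp10 as an exception. Sox6 against precursors was 0.028 without the library block, 0.37 under the stricter rule and -0.15 to 0.14 with 1 library left out, and Erbb4 was 0.049 under the stricter rule. Between the leaning groups Tnr was 0.13 with median-of-ratios factors, 0.14 with DESeq2, 1.08 without a filter and -0.27 to 0.37 with 1 library left out, and Fyn was 0.15, 0.17, 1.10 and -0.29 to 0.47 there and 0.0039 at 1000 UMIs. Dpp10 was at least 2-fold higher in vivo in both pairs in the main setting. Its ratio with methanol turned to -0.37 under the stricter rule and was 0.52 without called doublets. No paired analysis of harvest or fixation by replicate number was possible because the labels number no replicates; each was compared as library ratios, and a fit over the 4 libraries was not run. Depth limits the rest: the 126 nuclei held 374628 UMIs, so a gene under 3 counts in a library cannot be told from absence.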
